A study of Mus musculus with 6 samples.

Results

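The mitochondrial ribosomal protein genes were taken as the protein-coding genes of the deposited count table whose symbols begin with Mrpl or Mrps followed by a digit. The rule found 78 of 54532 genes, 49 named for the large subunit (Mrpl) and 29 for the small subunit (Mrps), and left out 5 pseudogenes of the same name pattern by their biotype. The table holds RNA-seq counts of the inguinal white fat pad, which lies under the skin, from mice kept on high-fat diet from 8 weeks of age on, for 15 weeks. The 3 control libraries came from mice with Cdo1 flox/flox alleles and no stated recombinase, called WT in the genotype label. The 3 Cdo1AKO libraries came from mice on the same diet in which Cdo1 was knocked out in adipose tissue. Cdo1 encodes cysteine dioxygenase, which oxidises cysteine on the route to taurine. Neither the promoter that drove the deletion nor the number of animals behind each library is stated in the labels, so p-values measure the spread between these libraries, which may be technical in part.

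The mitochondrial ribosome translates the few mRNAs of the mitochondrial genome, all of which encode subunits of the respiratory chain and the ATP synthase. Its rRNAs are made in the organelle, whereas every one of its proteins is encoded in the nucleus, made on cytosolic ribosomes and imported. Many of its proteins descend from bacterial ribosomal proteins and the others were added in the mitochondrial lineage. White adipocytes depend on mitochondria for fatty acid synthesis, lipid oxidation and adipokine secretion, and their mitochondrial content is a known variable in obesity.

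Libraries in this series differed in more than genotype. Values are given in the order of replicates 1 to 3. Total counts ran from 16275184 to 19205804 per library. Control 1 and Cdo1AKO 2 held almost no lymph node transcripts: summed over 8 genes that mark B cells, they had 2.02 and 6.88 counts per 1000000 counts (CPM), while the other 4 libraries had 653 to 1132 CPM. Glycam1 and Ccl21a, which mark lymph node vessels and stroma, were at 0 in those same libraries and detected in the other 4. The first principal component, with 69.2% of the variance, separated control 1 and Cdo1AKO 2 from the rest. Summed CPM of 12 adipocyte markers was 64739, 42760 and 51040 in controls and 26518, 55045 and 27801 in Cdo1AKO 1 to 3. By this sum Cdo1AKO 2 lay among the controls, but single markers went both ways. In Cdo1AKO 2, Lep was at 8301 CPM, against 1527, 1655 and 1619 CPM in controls. Cfd was at 1285 CPM there, against 13942, 6497 and 8905 CPM in controls. Cdo1 itself stood at 887, 432 and 631 CPM in controls and at 123, 392 and 134 CPM in Cdo1AKO 1 to 3. It was lowest in Cdo1AKO 1 and 3, with a log2 fold change of -1.59 ± 0.53 (SE, n = 3 and 3) and an edgeR adjusted p of 0.416. In bulk tissue, fewer cells of a type and less RNA per cell cannot be told apart. Counts of Cdo1AKO 1 and 3 were closer to each other than those of any other pair of a group, with a mean chi-square per tested gene of 5.63 against 23.0 to 203 in the other pairs, where sampling noise alone gives about 1.

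Promoters of the members were searched for short sequences, and whether these bear on the levels in the libraries was not tested. Of the 78 members, 69 had a RefSeq promoter on the GRCm38.p6 build, with 75 windows of 250 bases before to 50 bases after an annotated start. Windows were searched on both strands for 3 sequences known from genes of mitochondrial function. These were CCGGAAG, bound by GABPA and other ETS factors, the core palindrome bound by NRF1, and AAGATGGC, bound by YY1. Matches to the ETS and YY1 letters can overlap by 3 bases. The ETS letters were found in 34.7% of the members' windows and in 8.86% of all 32851 windows of the table. The NRF1 palindrome was found in 17.3% against 4.6%, and AAGATGGC in 12 of 75 windows of members against 2.75% of all. At least 1 of these 3 was present in 43 windows of members, or 57.3%, against 14.7% of all windows. The GC box GGGCGG was also more frequent in windows of members, in 52.0% against 35.7%. By contrast, the CCAAT box was found in 40.0% against 37.4% and TATAAA in 6.67% against 13.6%. A match is a description of letters in a window, not a measured binding site.

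The sequences below show these letters in promoters of members that the results turn on, 5′ to 3′ on the gene's strand, with matches to the 3 sequences in capitals. Each begins 120 bases before the RefSeq start and was shortened where annotated exons covered more than 30 of its bases. Mrpl3 (chr9:105053148-105053268, plus strand) is shown for a gene that was lower in every Cdo1AKO library. Mrpl12 (chr11:120484517-120484642, plus strand) and Mrps22 (chr9:98601650-98601799, minus strand) were among the members that varied most between libraries. Mrps18a (chr17:46110884-46111015, plus strand) and Mrpl45 (chr11:97315596-97315745, plus strand), which holds 3 matches, code for proteins of the large subunit. Mrpl20 (chr4:155802758-155802907, plus strand) has none of the 3 in the stretch shown.
Mrpl3: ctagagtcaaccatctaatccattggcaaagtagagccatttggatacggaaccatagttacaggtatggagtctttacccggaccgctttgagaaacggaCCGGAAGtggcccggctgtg
Mrps22: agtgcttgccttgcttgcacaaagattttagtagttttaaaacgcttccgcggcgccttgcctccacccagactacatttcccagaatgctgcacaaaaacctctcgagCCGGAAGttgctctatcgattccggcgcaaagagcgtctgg
Mrps18a: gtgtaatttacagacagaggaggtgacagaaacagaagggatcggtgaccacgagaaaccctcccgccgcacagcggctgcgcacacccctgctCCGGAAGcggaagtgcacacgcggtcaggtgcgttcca
Mrpl12: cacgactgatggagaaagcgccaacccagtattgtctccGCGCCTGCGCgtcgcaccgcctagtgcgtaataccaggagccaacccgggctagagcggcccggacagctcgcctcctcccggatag
Mrpl45: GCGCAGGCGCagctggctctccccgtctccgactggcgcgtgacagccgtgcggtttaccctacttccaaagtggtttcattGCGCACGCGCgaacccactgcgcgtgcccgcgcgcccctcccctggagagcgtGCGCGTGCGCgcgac
Mrpl20: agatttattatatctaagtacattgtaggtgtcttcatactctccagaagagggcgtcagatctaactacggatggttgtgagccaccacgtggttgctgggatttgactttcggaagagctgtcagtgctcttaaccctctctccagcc
The ETS letters lie 19 bases before the start in Mrpl3, 26 before it in Mrps18a and 11 before it in Mrps22. The NRF1 letters lie 81 bases before the start in Mrpl12 and, in Mrpl45, 120 and 38 bases before it and 16 after it.

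Of the 78 members, 77 passed the filter on low counts and were tested. These 77 had 179 to 1995 counts in each library. Their mean level ran from 13.1 CPM for Mrps18c to 68.8 CPM for the highest. The untested member was Mrpl53, a large subunit protein gene (chromosome 6, 83109040 to 83109939, mm10, plus strand), with 0 counts in all 6 libraries. In the GENCODE vM21 annotation, whose gene bounds can differ from the table's, 695 of its 790 exonic bases (88.0%) are shared with Gm42688, a gene on the same strand with a mean of 1.4 CPM, and no source used here says how the counter treated shared bases. A count of 0 can therefore not be read as absence of the Mrpl53 transcript.

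Levels within the ribosome were compared per kilobase of the gene length listed in the table. The 3 highest small subunit genes were Mrps21 at 67.5, Mrps6 at 43.6 and Mrps7 at 32.7 CPM per kilobase. The 3 highest large subunit genes were Mrpl34 at 46.4, Mrpl27 at 46.3 and Mrpl54 at 43.8 CPM per kilobase. The lowest 3 of each subunit were Mrpl19 at 2.88, Mrpl47 at 3.18, Mrps35 at 3.18, Mrps25 at 3.38, Mrpl15 at 3.76 and Mrps30 at 3.804 CPM per kilobase. Of the 6 high genes, all but Mrps7 have coding sequences shorter than the members' median of 588 bases. The 6 low genes have listed lengths from 4419 bases (Mrpl47) to 8631 bases (Mrps35), so their place depends on the length listed. Large subunit genes had the higher median in every library, 19.8, 15.8 and 16.2 CPM per kilobase in controls and 13.0, 18.6 and 13.2 in Cdo1AKO 1 to 3. Small subunit genes had 12.6, 9.39 and 10.1 CPM per kilobase in controls and 8.12, 11.6 and 9.03 in Cdo1AKO 1 to 3. Without the division by length the order held except in control 1, and in control 3 the medians were nearly equal. For CPM not divided by length, the large minus the small median on the log2 scale was -0.013, 0.21 and 0.020 in controls. It was 0.26, 0.25 and 0.20 in Cdo1AKO 1 to 3. The order of the members by level was largely kept. The rank correlation across the 77 genes between a Cdo1AKO library and the control mean was 0.924, 0.857 and 0.935 for Cdo1AKO 1 to 3, where genes are not independent replicates.

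**Figure D1:**
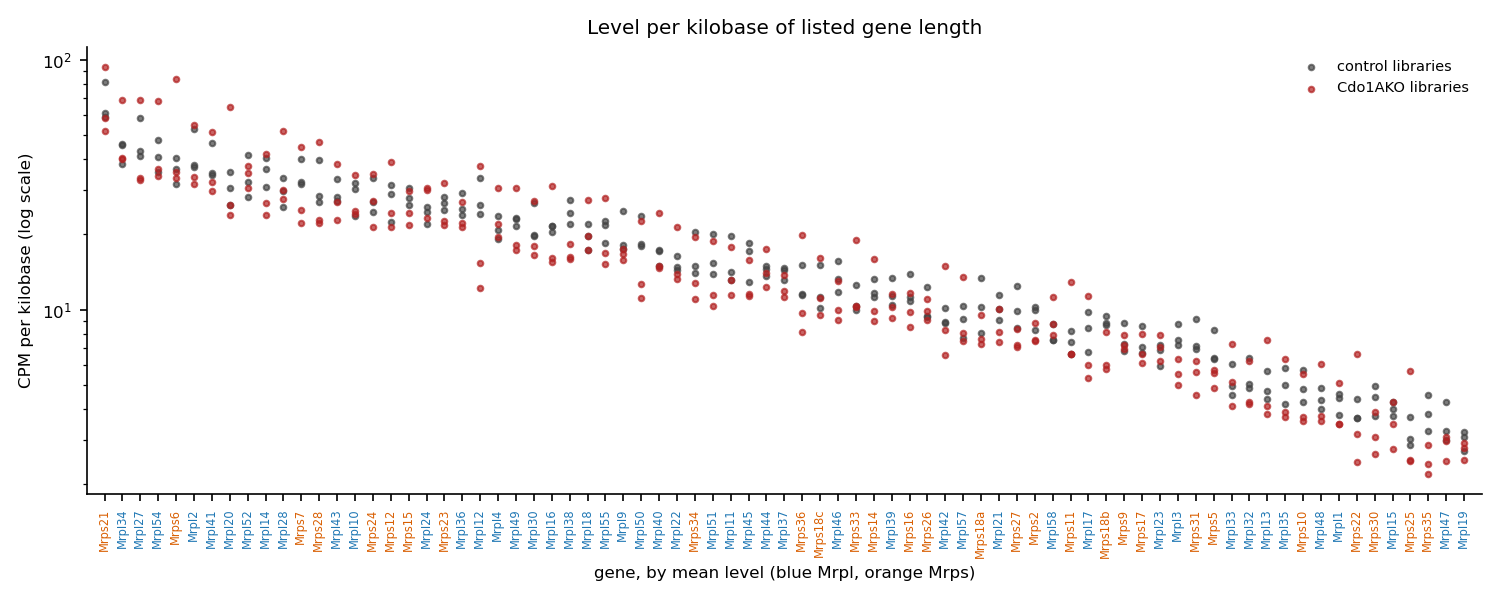
Level of the members per kilobase of listed gene length (CPM per kilobase, log scale), ordered by mean, with 1 point a library (grey control, red Cdo1AKO). Mrps21 has the highest mean, at 67.5 CPM per kilobase, and Mrpl19 the lowest of the tested members, at 2.88.

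The mitochondrial ribosomal protein genes did not form 2 groups by genotype. Summed over the 77 genes they reached 3181, 2554 and 2619 CPM in controls and 2218, 3437 and 2252 CPM in Cdo1AKO 1 to 3. Cdo1AKO 1 and 3 were the lowest libraries and Cdo1AKO 2 was the highest, above control 1, so the groups overlapped. The means were 2785 ± 345 CPM in controls and 2636 ± 694 CPM in Cdo1AKO (SD, n = 3 each), a difference smaller than the spread within either group. The high libraries, control 1 and Cdo1AKO 2, were the ones without lymph node transcripts. The low ones, Cdo1AKO 1 and 3, had the lowest adipocyte marker sums and the highest T cell marker sums, 905 and 928 CPM against 11.5 to 362 CPM in the other 4 libraries. The part of these other cell types in the members' levels was not tested.

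Counted gene by gene, Cdo1AKO 1 was below every control for 60 of 77 members, where 33.9% of all 16623 tested genes were. Cdo1AKO 3 was below every control for 57 of 77, also against 33.9% of all genes. Cdo1AKO 2 was below every control for 7 of 77, against 31.5% of all genes, and above every control for 45 of 77, against 36.3%. The median log2 ratio of the members to the control mean was -0.34 in Cdo1AKO 1, 0.28 in Cdo1AKO 2 and -0.30 in Cdo1AKO 3, while the medians over all genes were 0.01, 0.01 and 0.02. Control 1 was also apart from its own group, above the mean of the other controls for 75 of 77 members, by a median of 0.31 on the log2 scale.

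**Figure D2:**
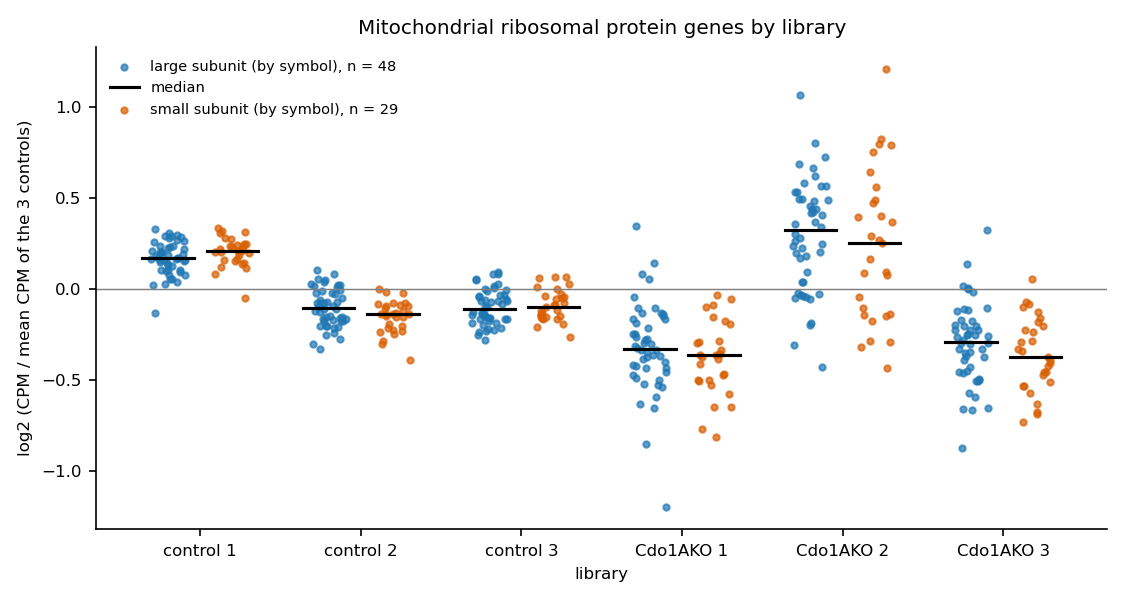
Log2 ratio of each tested member to the mean of the 3 controls, by library and subunit, with 1 point a gene. Points lie mostly below 0 in Cdo1AKO 1 and 3 (medians -0.34 and -0.30) and mostly above 0 in Cdo1AKO 2 (median 0.28).

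In the comparison of Cdo1AKO with control over all 6 libraries, no member passed the threshold of 0.05 on adjusted p by edgeR, and neither did any other gene (0.0% of 16623). At an unadjusted p under 0.05, edgeR had 4 members, all lower in Cdo1AKO, against 10.4% of all genes in either direction, 5.71% on the lower and 4.66% on the higher side. DESeq2 called no member and 1.48% of all genes on adjusted p, and had 3 members at an unadjusted p under 0.05 (3.9%, against 10.5% of all genes). limma-voom called no member and no gene (0.0%), with 5 members at an unadjusted p under 0.05 (9.91% of all genes). With the replicate number as a block, edgeR called no gene and had 1 member at an unadjusted p under 0.05 (5.47% of all genes). In the authors' deposited table no member had an adjusted p under 0.05, where 1.0% of all genes with an adjusted p did. The log2 fold change was below 0 for 51 of 77 members, against 44.0% of all genes, with a median of -0.06 beside 0.06 over all genes. With library totals in place of trimmed mean scaling, 43 of 77 were below 0, and the median over all genes moved to 0.13. Without Cdo1AKO 2, 74 of 77 members were below 0 (49.1% of all genes) with a median of -0.32. In that comparison 29 members were lower at an unadjusted p under 0.05 (15.5% of all genes), and edgeR called no member and no gene on adjusted p (0.0%). Without control 1, 37 of 77 were below 0 and the median was 0.01, so the direction of the median rested on single libraries of either group.

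For 7 members the groups did not overlap, with every Cdo1AKO library below every control (9.09%, against 9.73% of all tested genes), and for none were they higher throughout (8.87% of all genes). These shares are close to the background. The 7 were 2 large and 5 small subunit genes.

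Mrpl38 had the smallest p of the members. It codes for a protein of the central protuberance, the crown of the large subunit that faces the small subunit. Its level was 69.7, 56.2 and 62.3 CPM in controls and 40.5, 46.6 and 41.6 CPM in Cdo1AKO 1 to 3. The lowest control was above the highest Cdo1AKO library, and unlike most members, Mrpl38 was not raised in Cdo1AKO 2. The means were 62.7 ± 6.75 and 42.9 ± 3.23 CPM (SD, n = 3 each). The log2 fold change was -0.55 ± 0.14 (SE), with an edgeR adjusted p of 0.345. The gene lies on chromosome 11 from 116131817 to 116138868 (mm10, minus strand).

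Mrpl3, a core protein of the large subunit with a bacterial homologue, was the other large subunit gene of the 7 (chromosome 9, 105053239 to 105079888, plus strand). It stood at 58.5, 48.2 and 50.1 CPM in controls and at 33.3, 42.3 and 36.9 CPM in Cdo1AKO. Control 2 and Cdo1AKO 2 were the nearest libraries of the groups. Its log2 fold change was -0.48 ± 0.15, with an edgeR adjusted p of 0.396.

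Of the 5 small subunit genes, Mrps35 had the largest fold change of all members towards lower values (chromosome 6, 147042764 to 147073991, plus strand). Its protein has no bacterial counterpart. The level was 39.2, 28.1 and 32.9 CPM in controls and 19.05, 24.8 and 20.8 CPM in Cdo1AKO, with a log2 fold change of -0.63 ± 0.19 and an edgeR adjusted p of 0.373. Mrps31, also specific to the mitochondrial ribosome, stood at 30.1, 23.0 and 23.5 CPM in controls and 15.0, 20.5 and 18.6 CPM in Cdo1AKO (chromosome 8, 22411361 to 22429665, plus strand). Its log2 fold change was -0.50 ± 0.19, with an edgeR adjusted p of 0.461. In both genes Cdo1AKO 2 was the Cdo1AKO library nearest to the controls.

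Mrps5, the homologue of a bacterial protein that bears on decoding accuracy, stood at 54.4, 41.9 and 41.8 CPM in controls and 31.9, 37.7 and 36.7 CPM in Cdo1AKO, with a log2 fold change of -0.38 ± 0.16. Mrps27, whose protein has the repeats of RNA-binding pentatricopeptide proteins, stood at 26.0, 17.6 and 20.6 CPM in controls and 15.1, 17.6 and 14.8 CPM in Cdo1AKO. Control 2 and Cdo1AKO 2 differed there only in the second decimal, so its groups all but touched. Mrps18b, 1 of 3 genes related to bacterial S18, stood at 18.2, 18.5 and 19.6 CPM in controls and 12.6, 17.0 and 12.1 CPM in Cdo1AKO. Both had a log2 fold change of -0.43, and edgeR adjusted p values of the 3 genes were 0.503, 0.523 and 0.506 in the order given. In Mrps18b, 30.5% of exonic bases are shared with Gm16279 on the opposite strand, which had a mean of 1.99 CPM, and reads of the pair cannot be told apart without strand.

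**Figure D3:**
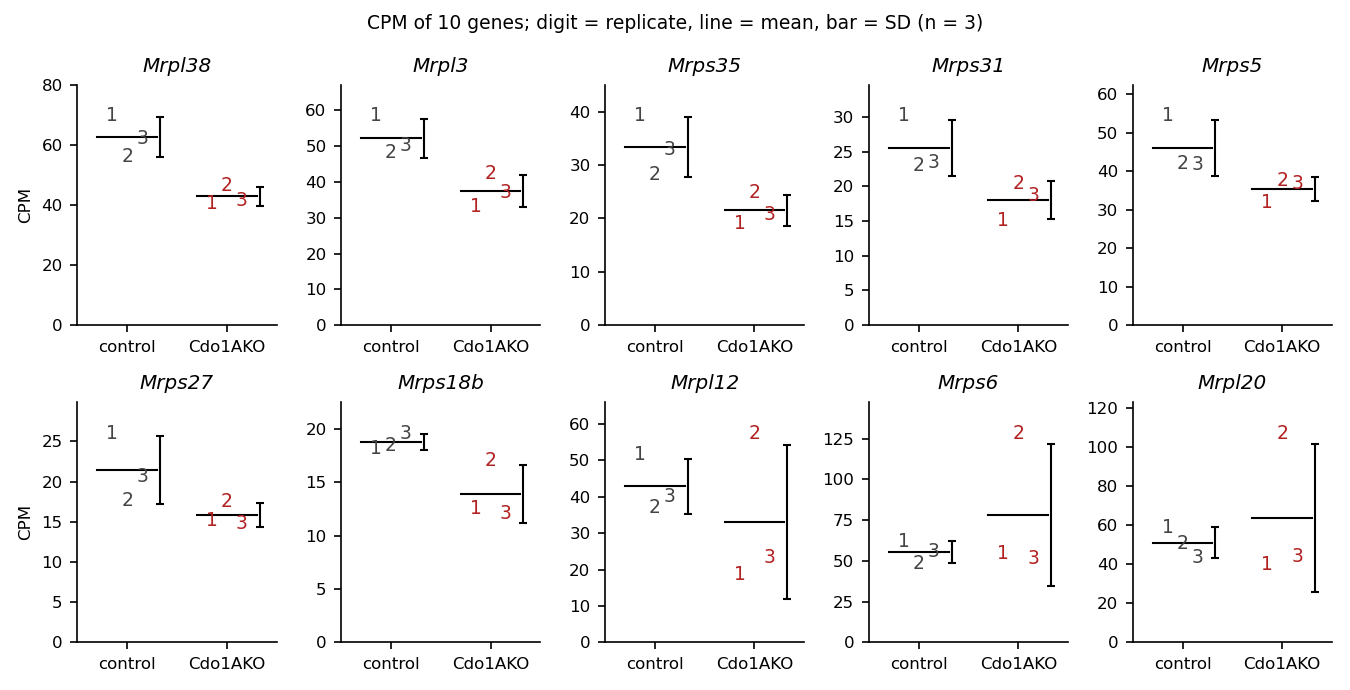
Level of single members in each library (CPM), controls and Cdo1AKO side by side. In Mrpl38 the 3 Cdo1AKO libraries (40.5 to 46.6 CPM) lie below the 3 controls (56.2 to 69.7 CPM), while in Mrps6 Cdo1AKO 2 stands alone at 128 CPM.

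In most other members Cdo1AKO 2 stood apart from Cdo1AKO 1 and 3. Mrpl12, the homologue of bacterial L7/L12, whose stalk receives translation factors and which is also known to bind mitochondrial RNA polymerase, varied most of all members. It stood at 51.5, 37.0 and 40.1 CPM in controls and at 18.7, 57.5 and 23.4 CPM in Cdo1AKO 1 to 3 (chromosome 11, 120484613 to 120489065, plus strand). Cdo1AKO 1 and 3 were below every control and Cdo1AKO 2 above every control, which left a log2 fold change of -0.37 ± 0.44 and an edgeR adjusted p of 0.792.

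Mrps6, the homologue of bacterial S6, had the largest fold change towards higher values, and it came from 1 library. Its level was 61.7, 48.6 and 56.0 CPM in controls and 54.3, 128 and 51.8 CPM in Cdo1AKO, with a log2 fold change of 0.49 ± 0.38 and an edgeR adjusted p of 0.684. Mrpl20, a large subunit protein with a bacterial homologue, had the same form at 59.0, 50.8 and 43.6 CPM in controls and 39.8, 107 and 43.7 CPM in Cdo1AKO (0.31 ± 0.40, edgeR adjusted p 0.806). Mrps22, specific to the mitochondrial small subunit, stood at 17.5, 14.7 and 14.7 CPM in controls and 12.7, 26.4 and 9.83 CPM in Cdo1AKO (0.06 ± 0.38). In Mrpl24 and Mrps9, Cdo1AKO 2 was instead the lowest of the Cdo1AKO libraries. Mrpl24 stood at 49.5, 55.3 and 57.9 CPM in controls and 69.1, 52.6 and 67.8 CPM in Cdo1AKO, with 26.3% of its exonic bases shared with Rrnad1 on the opposite strand. Mrps9 stood at 50.99, 41.9 and 39.3 CPM in controls and 41.4, 40.0 and 45.8 CPM in Cdo1AKO. Both were named after their values were seen.

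By region, the 3 stalk genes Mrpl10, Mrpl11 and Mrpl12 had log2 fold changes of -0.05, -0.15 and -0.37. None passed the test, and their summed levels were 163, 118 and 130 CPM in controls and 94.0, 168 and 103 CPM in Cdo1AKO. The 7 genes of the central protuberance, where a tRNA takes a structural role, summed to 273, 225 and 229 CPM in controls and 184, 292 and 187 CPM in Cdo1AKO. Those around the exit tunnel, through which the new protein leaves towards the inner membrane, differed least between libraries of these 3 regions. Their 7 genes summed to 226, 202 and 210 CPM in controls and 205, 225 and 200 CPM in Cdo1AKO. Of these, 3 of 7 were below 0, with a median log2 fold change of 0.02. The sums include Mrpl24, which had the highest fold change of the 7 (0.22) and, unlike most members, was above every control in Cdo1AKO 1 and 3. It shares 26.3% of its exonic bases with Rrnad1, and its part in the small difference was not tested.

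Within that exit region, Mrpl45, which tethers the ribosome to the inner membrane, stood at 47.9, 33.4 and 44.4 CPM in controls and 29.9, 41.0 and 29.5 CPM in Cdo1AKO (-0.32 ± 0.21, edgeR adjusted p 0.644). Mrpl44, which resembles ribonuclease III, stood at 24.6, 24.0 and 22.4 CPM in controls and 23.0, 28.7 and 20.3 CPM in Cdo1AKO (0.02 ± 0.17). Outside that region, Mrpl58, a peptidyl-tRNA hydrolase built into the large subunit, stood at 29.1, 25.1 and 25.3 CPM in controls and 29.2, 37.3 and 26.5 CPM in Cdo1AKO (0.23 ± 0.18). In all of these the groups overlapped, and in Mrpl44 and Mrpl58 the highest value was that of Cdo1AKO 2.

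Several members carry a symbol that does not match their place. Mrps30 and Mrps18a are named for the small subunit, and structures put both proteins in the large one. Mrps30 stood at 32.9, 25.1 and 29.9 CPM in controls and 20.6, 26.0 and 17.7 CPM in Cdo1AKO (-0.45 ± 0.20, edgeR adjusted p 0.516). Mrps18a stood at 49.3, 29.7 and 38.0 CPM in controls and 28.2, 35.2 and 27.0 CPM in Cdo1AKO (-0.37 ± 0.23, edgeR adjusted p 0.617). Its paralogue Mrps18c, which stays in the small subunit, stood at 16.3, 12.04 and 10.9 CPM in controls and 10.2, 17.2 and 11.97 CPM in Cdo1AKO (0.01 ± 0.27). Mrps36 is now known as a subunit of the 2-oxoglutarate dehydrogenase complex and stood at 19.3, 14.7 and 14.6 CPM in controls and 10.3, 25.3 and 12.4 CPM in Cdo1AKO (-0.02 ± 0.37). In all 4 genes the groups overlapped.

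The large and the small subunit followed each other from library to library. Large subunit genes summed to 2039, 1663 and 1689 CPM in controls and 1446, 2238 and 1465 CPM in Cdo1AKO 1 to 3. Small subunit genes summed to 1142, 891 and 931 CPM in controls and 772, 1199 and 787 CPM in Cdo1AKO 1 to 3. Both sums were highest in Cdo1AKO 2 and lowest in Cdo1AKO 1, in the same order of libraries. Their ratio was 1.79, 1.87 and 1.81 in controls and 1.87, 1.87 and 1.86 in Cdo1AKO, or 1.82 ± 0.0405 against 1.87 ± 0.00522 (SD, n = 3 each). The values of control 2 and Cdo1AKO overlapped. With Mrps30 and Mrps18a counted in the large subunit and Mrps36 left out, the ratio was 2.04, 2.09 and 2.07 in controls and 2.10, 2.07 and 2.07 in Cdo1AKO.

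The median log2 fold change was -0.07 over 48 large subunit genes, with 30 below 0, and -0.06 over 29 small subunit genes, with 21 below 0. By descent, 20 of 30 large subunit genes with a bacterial homologue were below 0 (median -0.09), as were 12 of 20 specific to mitochondria (median -0.04). In the small subunit, 11 of 16 genes with a bacterial homologue were below 0 (median -0.06), as were 7 of 10 specific to mitochondria (median -0.12). Mrps18a and Mrps18b, although related to bacterial S18, were counted as specific to mitochondria because their proteins take other places in the ribosome. The 10 small subunit genes specific to mitochondria included 4 of the 7 genes whose groups did not overlap. Of all tested genes, 9.73% had such groups on the lower side. Members are not replicates, so these medians and counts were not tested against each other.

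Within Cdo1AKO 2, the direction went with the coding length of the member. Coding sequences ran from 261 bases for Mrps21 to 1326 for Mrps30, with a median of 588 beside 1395 over all tested coding genes. Across the 77 members, Spearman's rho between coding length and the log2 ratio to the control mean was -0.54 in Cdo1AKO 2. It was -0.20 in Cdo1AKO 1 and -0.21 in Cdo1AKO 3. Over 6366 other genes of the same length range it was -0.09, 0.07 and 0.03 in Cdo1AKO 2, 1 and 3. A correlation with coding length was also seen between controls, at 0.36 over the members in control 3 against the other controls, where other genes of that length range had 0.14. With the gene length listed in the table in place of coding length, rho in Cdo1AKO 2 was -0.36. These correlations are descriptions across genes that share a library.

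The 26 members with the shortest coding sequences had a median log2 ratio of 0.43 in Cdo1AKO 2, the 25 in the middle 0.38 and the 26 longest -0.04. Of the shortest, 20 of 26 were above every control there and none was below every control. Of the longest, 8 of 26 were above and 7 below, close to the shares over all tested genes, 36.3% above and 31.5% below. These 7 were the members whose groups did not overlap, with coding sequences of 762 to 1296 bases. That they are long follows from the same values of Cdo1AKO 2 and is no separate result. In Cdo1AKO 1 the 3 length classes had medians of -0.32, -0.34 and -0.39, and in Cdo1AKO 3 -0.28, -0.34 and -0.32, with little difference by length. Other genes of the same lengths had medians of 0.26 for the short and 0.10 for the long class in Cdo1AKO 2.

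**Figure D4:**
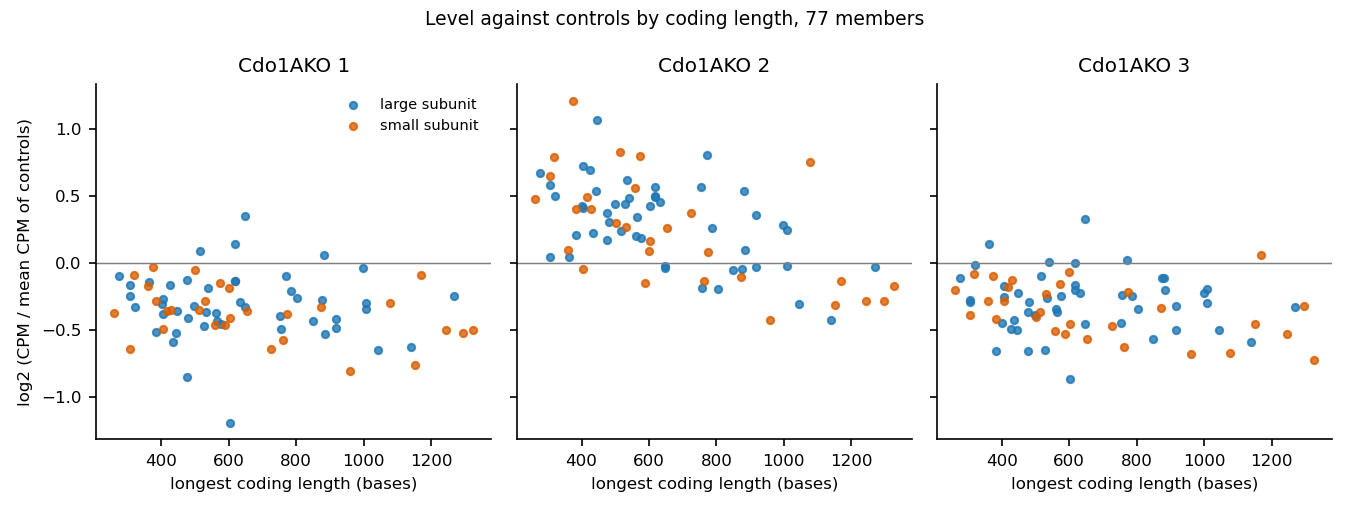
Log2 ratio of each tested member to the control mean against its coding length (bases), for the 3 Cdo1AKO libraries. In Cdo1AKO 2 short members lie high and long ones near 0 (rho -0.54), and in Cdo1AKO 1 and 3 members of all lengths lie mostly below 0.

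Lymph node transcripts divided the libraries within each group, so the comparison was repeated within and across that division. With a term for lymph node transcripts added, edgeR called 2 members, both lower in Cdo1AKO, where 4.13% of all genes were called and 1.87% on the lower side. They were Mrpl38 (-0.55 ± 0.11, adjusted p 0.0457) and Mrps35 (-0.63 ± 0.13, adjusted p 0.0467). Their fold changes were those of the comparison without the term and their errors were smaller.

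Among the 4 libraries with lymph node transcripts, 2 of each group, 67 of 77 members were below 0 (49.7% of all genes) with a median log2 fold change of -0.22. There edgeR called 8 members, all lower, or 10.4%, where 15.3% of all genes were called and 7.7% on the lower side. By edgeR, the 8 were Mrpl12 (-0.88, adjusted p 0.0105), Mrpl50 (-0.62, 0.0176), Mrpl38 (-0.53, 0.0196), Mrps35 (-0.62, 0.0254), Mrpl3 (-0.49, 0.0265), Mrps18b (-0.63, 0.0285), Mrps7 (-0.45, 0.0335) and Mrpl51 (-0.42, 0.0437). Mrpl50 and Mrpl51 were named for passing this comparison, after their values were seen. Mrpl50 stood at 38.1 and 38.8 CPM in control 2 and 3 and at 23.4 and 26.7 CPM in Cdo1AKO 1 and 3, and Mrpl51 at 56.0 and 61.9 against 46.2 and 41.9 CPM. The Cdo1AKO libraries here also had 26518 and 27801 CPM of adipocyte markers against 42760 and 51040 CPM in their controls, and the part of that difference in the members' levels was not tested.

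In the libraries without lymph node transcripts, 1 of each group and so without a test, 46 of 77 members were higher in Cdo1AKO 2 than in control 1, against 54.1% of all genes. The median log2 ratio was 0.14 over large and -0.04 over small subunit genes. Adipocyte marker sums there were 55045 CPM in Cdo1AKO 2 and 64739 CPM in control 1. Mrpl38 was lower in Cdo1AKO 2 than in control 1, 46.6 against 69.7 CPM, and Mrps35 likewise, 24.8 against 39.2 CPM. The groups did not overlap in either gene, so both had to be lower in Cdo1AKO on each side of the division. An interaction term in edgeR, added after the values were seen, had an adjusted p under 0.05 in 6 of 77 members, all below 0. That is 7.79%, where the share over all genes was 11.6%, and 8.04% with an interaction below 0, so it is no result about the members. With 1 library of each group on a side, the term assumes that these libraries vary like the other 4, and in all 6 members Cdo1AKO 2 was above every control.

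Genes that serve the mitochondrial ribosome were read from lists of its partners. Of 27 genes for assembly and rRNA modification, none was called by edgeR over all 6 libraries. In that comparison 22 of 27 had a log2 fold change below 0 (44.0% of all genes; median -0.20), and 8 of 27 had groups that did not overlap on the lower side (9.73% of all genes). Among the 4 libraries with lymph node transcripts edgeR called 1 of the 27, Mettl17, which was higher (0.52 ± 0.11, adjusted p 0.0236), where 7.65% of all genes were called higher. Mterf3, needed for assembly of the large subunit, stood at 53.6, 45.3 and 49.2 CPM in controls and 35.9, 30.8 and 38.6 CPM in Cdo1AKO (-0.49 ± 0.15, edgeR adjusted p 0.379). Gtpbp10, a GTPase of large subunit assembly, stood at 21.4, 15.8 and 17.9 CPM in controls and 11.2, 12.8 and 15.2 CPM in Cdo1AKO (-0.49 ± 0.20). Unlike most ribosomal proteins, both were below every control in Cdo1AKO 2 as well.

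Of 16 translation factors, 11 were below 0 (median -0.16). Gfm2, which recycles the ribosome after termination, stood at 54.5, 48.1 and 51.7 CPM in controls and 37.4, 41.4 and 38.3 CPM in Cdo1AKO (-0.40 ± 0.12, edgeR adjusted p 0.390). Lrpprc, which stabilises mitochondrial mRNAs, stood at 57.0, 54.7 and 62.7 CPM in controls and 44.0, 54.5 and 45.9 CPM in Cdo1AKO (-0.27 ± 0.14). Of 20 genes for mitochondrial aminoacyl-tRNA synthesis, 15 were below 0 (median -0.17), with Yars2 at -0.41 ± 0.17 and Sars2, for seryl-tRNA, at 0.44 ± 0.18 in the other direction. Over all 6 libraries edgeR called no gene of either list. Among the 4 libraries with lymph node transcripts, where 7.7% of all genes were called lower, edgeR called 3 of 16 translation factors lower, Gfm1 (-0.46), Gfm2 (-0.41) and Mrrf (-0.63). There it also called 2 of 20 synthetase genes lower, Iars2 (-0.47) and Fars2 (-0.57).

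Of 11 genes for transcription and upkeep of the mitochondrial genome, 6 were below 0 (median -0.02) and none was called by edgeR over all 6 libraries. Tfb2m, a transcription initiation factor, stood at 47.6, 34.2 and 40.1 CPM in controls and 27.0, 23.7 and 26.2 CPM in Cdo1AKO (-0.66 ± 0.17, edgeR adjusted p 0.345). Twnk, the mitochondrial DNA helicase, stood at 28.3, 24.2 and 25.6 CPM in controls and 18.5, 14.7 and 16.7 CPM in Cdo1AKO (-0.65 ± 0.16, edgeR adjusted p 0.345). In both the groups did not overlap, as in 9.73% of all tested genes on the lower side, and Cdo1AKO 2 was the lowest library. Among the 4 libraries with lymph node transcripts edgeR called these 2 of the 11 genes lower, where 7.7% of all genes were called lower. Tfb2m was at -0.48 ± 0.12 (edgeR adjusted p 0.0408) and Twnk at -0.50 ± 0.13 (edgeR adjusted p 0.0418). Genes of this and the preceding lists that were named for a call among those 4 libraries were chosen after their values were seen.

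Of 10 regulators of mitochondrial biogenesis, 6 were below 0 over all 6 libraries (median -0.07), and edgeR called none there. Among the 4 libraries with lymph node transcripts 4 of 10 were below 0 (median 0.04). There edgeR called Ppargc1a lower (-1.51 ± 0.19, adjusted p 0.00658) and Myc higher (0.55 ± 0.11, adjusted p 0.0224). Of all genes, 7.7% were called lower there and 7.65% higher. Myc was named for that call, after its value was seen. Over all 6 libraries Ppargc1a had the largest fold change of the 10. It encodes PGC-1α, a coactivator of nuclear genes for mitochondrial proteins. Its level was 15.9, 13.5 and 17.1 CPM in controls and 5.60, 6.95 and 5.16 CPM in Cdo1AKO, every Cdo1AKO library far below every control. The log2 fold change was -1.39 ± 0.21, with an edgeR adjusted p of 0.230, and -1.40 ± 0.19 with an adjusted p of 0.0229 with the lymph node term. Ppargc1b, its paralogue, stood at 7.73, 8.61 and 7.67 CPM in controls and 6.40, 3.28 and 4.50 CPM in Cdo1AKO (-0.76 ± 0.29, edgeR adjusted p 0.454). Ppargc1a was low in Cdo1AKO 2 as well, the library in which 45 of 77 ribosomal protein genes were above every control.

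Transcripts of the mitochondrial genome and of nuclear respiratory chain genes spanned a wider range between libraries than those of the ribosomal proteins did. Summed over 13 mitochondrially encoded mRNAs, levels were 39004, 30621 and 39703 CPM in controls and 21273, 50491 and 21988 CPM in Cdo1AKO. Summed over 76 nuclear-encoded subunits of the respiratory chain and ATP synthase, they were 16526, 11334 and 12563 CPM in controls and 8504, 16213 and 8936 CPM in Cdo1AKO. Relative to the control mean on the log2 scale, respiratory chain sums were -0.66, 0.27 and -0.59 in Cdo1AKO 1 to 3, where large subunit sums were -0.31, 0.32 and -0.29. Sums over 82 cytosolic ribosomal protein genes went the other way, at 0.47, -0.32 and 0.53. No gene of these 3 lists was called by edgeR over all 6 libraries. Among the 4 libraries with lymph node transcripts edgeR called 36 of 76 respiratory chain genes and 7 of 13 mitochondrially encoded mRNAs, all lower, where 7.7% of all genes were called lower. There it called 25 of 80 tested cytosolic ribosomal protein genes higher (7.65% of all genes) and 1, Rpl29, lower. The Cdo1AKO libraries of that comparison were also the ones with the lowest adipocyte and the highest T cell marker sums, whose part was not tested.

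The adipocyte marker sums were at -0.99, 0.06 and -0.93 relative to controls in Cdo1AKO 1 to 3, a larger distance than that of either subunit in Cdo1AKO 1 and 3. The 5 mitoribosomal proteins with other symbols, among them Dap3 and Aurkaip1, had a median log2 fold change of 0.01, with 2 of 5 below 0. Dap3, a GTP-binding protein of the small subunit, stood at 59.6, 58.5 and 56.2 CPM in controls and 54.4, 73.6 and 55.5 CPM in Cdo1AKO. Its form over libraries was that of most members, with Cdo1AKO 2 highest.

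**Figure D5:**
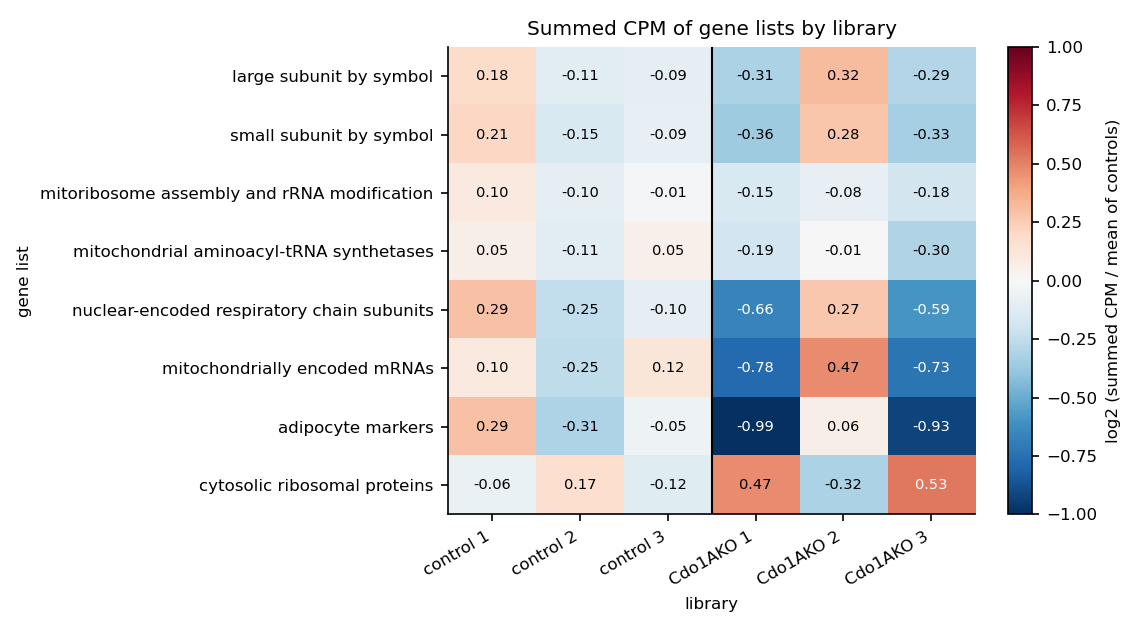
Log2 of the summed CPM of each gene list relative to the control mean, in each library. Both ribosomal subunits, the respiratory chain and the mitochondrially encoded mRNAs are low in Cdo1AKO 1 and 3 and high in Cdo1AKO 2, and the cytosolic ribosomal proteins are the reverse.

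Many members share their start region with another gene. A gene on the opposite strand began within 1000 bases, or overlapped the start by at most 500, for 27 of 78 members (34.6%), against 13.3% of 13885 tested coding genes. In 1 case both genes were members. Mrpl46 (chromosome 7, 78775236 to 78783531, minus strand) and Mrps11 (78783119 to 78792989, plus strand) overlap by 412 bases at their annotated starts. Mrpl46, a protein of the central protuberance, stood at 22.1, 16.6 and 18.7 CPM in controls and 14.1, 18.4 and 12.9 CPM in Cdo1AKO (-0.34 ± 0.21, edgeR adjusted p 0.620). Mrps11, of the small subunit, stood at 17.8, 16.1 and 14.4 CPM in controls and 14.5, 28.0 and 14.4 CPM in Cdo1AKO (0.24 ± 0.30, edgeR adjusted p 0.804). Both were higher in Cdo1AKO 2 than in Cdo1AKO 1 and 3, and only Mrps11 was there above every control.

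In other pairs, members and neighbours could be alike or differ in form over the libraries, and pairs of either kind were not counted. Mrpl32 with Psma2 and Mrpl36 with Ndufs6, named after their values were seen, were alike. Of the Cdo1AKO libraries, Cdo1AKO 2 was highest in all of these genes, with Psma2 at 108 and Ndufs6 at 64.8 CPM. Mrpl43, a large subunit gene, starts 116 bases from Twnk and stood at 40.5, 32.96 and 34.3 CPM in controls and 32.8, 46.4 and 27.8 CPM in Cdo1AKO, highest in Cdo1AKO 2, where Twnk was lowest. In GENCODE vM21, 33.4% of the exonic bases of Mrpl43 are shared with Twnk on the opposite strand, and reads of the pair cannot be told apart without strand. Mrps12, the homologue of bacterial S12 at the decoding centre, starts 172 bases from Sars2 and stood at 32.8, 23.3 and 30.1 CPM in controls and 22.3, 40.3 and 25.4 CPM in Cdo1AKO. Sars2 stood at 8.71, 9.90 and 9.76 CPM in controls and 13.9, 13.5 and 11.03 CPM in Cdo1AKO, all Cdo1AKO libraries above all controls. Mrps27 starts 81 bases from Ptcd2, whose log2 fold change was -0.05 ± 0.14. In GENCODE vM21, 18 of 78 members share more than 10% of their exonic bases with another gene, among them Mrps34 (77.8%, mainly with Mapk8ip3) and Mrps25 (69.8%, with Nr2c2), and their values may hold reads of the partner.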

How the data were processed

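RNA of inguinal white adipose tissue was sequenced in 3 control and 3 Cdo1AKO samples, grouped by title, after TRIzol extraction and NEBNext Ultra library preparation, per the labels' protocols. The authors deposited raw counts per gene, per the file headers; FPKM values deposited by the authors in the same table were not used. The submitters' processing notes name mm10, DESeq2 1.20.0, featureCounts 1.5.0-p3 and HISAT2 2.0.5, and give no roles. No source used here gives the strand setting, so reads of genes that overlap on opposite strands cannot be separated.

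Members and gene lists were chosen with earlier results of these data known, as was the lymph node term, which marks libraries whose median CPM of B cell and lymph node stroma markers was above 5. Of 54532 genes, 16623 passed filterByExpr. Counts were tested with edgeR 4.0.16 (R 4.3.3; TMM scaling, quasi-likelihood test, group as the only term, Benjamini-Hochberg adjustment over all tested genes, threshold 0.05), after the code was tested on simulated counts. In those counts, with group as the only term, edgeR called 0.0% of genes changed 2-fold and 19.7% of genes changed 4-fold. Absence of a call over all 6 libraries is therefore weak evidence of no change. CPM uses TMM-scaled library sizes, except in the marker median of the lymph node term, which uses library totals. The principal components and the correlations of replicate numbers used log2 CPM with a prior count of 2. Log2 CPM of the members was taken without a prior count. Errors of log2 fold changes are SE, and those of means are SD of 3 libraries. Alternatives were other scalings and filters, DESeq2 1.42.0, limma-voom (3.58.1), a replicate block, the lymph node term, the 4 libraries with lymph node transcripts, and each library left out. The interaction of group with lymph node transcripts was added after the data were seen. Coding lengths and exon overlaps came from GENCODE vM21 (GRCm38), which holds all 78 members, 73 with the bounds of the table, and promoters from RefSeq (GRCm38.p6).

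Members were named by rule: 14 of known role, the 5 smallest p, 3 highest and 3 lowest levels per kilobase and 2 largest SDs of log2 CPM in each subunit, the largest fold change each way, up to 6 whose groups did not overlap, any called, and the 2 smallest p of each list described.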

Additional observations from a re-analysis of the deposited data

Results flagged for a closer look

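An interaction of group with lymph node transcripts, a term in edgeR added after the values were seen, had an adjusted p under 0.05 in 6 members. The members' share of 7.79% was at or below that of all genes, 11.6% in either direction and 8.04% with an interaction below 0, so these values describe single genes and are no result about the members as a group. The log2 interaction was -1.04 ± 0.19 (SE) for Mrps6, with an edgeR adjusted p of 0.0169. It was -1.04 ± 0.20 for Mrpl20 (edgeR adjusted p 0.0202) and -1.03 ± 0.23 for Mrpl12 (edgeR adjusted p 0.0326). Mrpl16, a large subunit protein with a bacterial homologue, had -0.95 ± 0.21 (edgeR adjusted p 0.0326), and Mrpl49, specific to mitochondria, -0.76 ± 0.19 (edgeR adjusted p 0.0412). Mrps25 of the small subunit had -0.85 ± 0.22 (edgeR adjusted p 0.0463), and 69.8% of its exonic bases are shared with Nr2c2 on the opposite strand.

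The side without lymph node transcripts holds 1 library of each group, control 1 and Cdo1AKO 2. The test takes its error from the other 4 libraries and assumes that the lone ones vary like them. In all 6 genes Cdo1AKO 2 was above every control, and that side of the interaction has no replicate check. How much it adds differed by gene. In Mrpl12 the log2 ratio of Cdo1AKO 2 to control 1 was only 0.16. Its log2 fold change among the libraries with lymph node transcripts was -0.88, the larger part of its interaction. Mrpl16 stood at 24.2, 24.1 and 22.9 CPM in controls and 17.996, 35.2 and 17.4 CPM in Cdo1AKO 1 to 3. Mrpl49 stood at 39.6, 40.0 and 37.2 CPM in controls and 31.1, 52.8 and 29.7 CPM in Cdo1AKO 1 to 3. Mrps25 stood at 24.4, 20.0 and 18.9 CPM in controls and 16.5, 37.3 and 16.3 CPM in Cdo1AKO 1 to 3. Mrpl16 and Mrpl49 were named after their values were seen.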

How the results depend on the processing

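With only 3 libraries a group, 2 of them apart from their own groups, most member values depended on single libraries. The number of genes edgeR called over all genes was 0. It was 271 with DESeq2, 686 with the lymph node term and 2617 in the 4 libraries with lymph node transcripts. The corresponding numbers of members were 0 with DESeq2, 2 with the lymph node term, 8 in those 4 libraries, and 6 for the interaction. The scalings, the filters, limma-voom and each library left out called no gene and no member on adjusted p. In the 4 libraries with lymph node transcripts the large minus the small subunit median was 0.089.

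Replicate numbers are shared between the groups. Deviations from the group mean correlated at -0.66, -0.67 and 0.45 for the pairs numbered 1 to 3, and 0 of 3 controls correlated best with their own number. The libraries without lymph node transcripts, control 1 and Cdo1AKO 2, differ in number and weigh on these values. The correlations can therefore not tell whether libraries of the same number were paired. With the replicate block edgeR called no gene and no member, with 909 genes and 1 member at an unadjusted p under 0.05. The block turned the log2 fold changes of Mrps12 to -0.0068, Mrps18c to -0.0041, Mrps21 to -0.019 and Mrps22 to -0.073.

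Members near 0 changed sign elsewhere too. With library totals only, Mrpl10 was at 0.015 and Mrps36 at 0.0027. With upper quartile scaling, Mrpl44 was at -0.0023, Mrps18c at -0.019 and Mrps21 at -0.014. With limma-voom, Mrps12 was at -0.012, Mrps18c at -0.016, Mrps21 at -0.020 and Mrps22 at -0.091. With the lymph node term they were at -0.0079, -0.0040, -0.017 and -0.055. In the 4 libraries with lymph node transcripts, Mrpl20 was at -0.18, Mrpl34 at -0.073, Mrpl44 at -0.10, Mrpl54 at -0.11, Mrpl57 at -0.12, Mrps12 at -0.17, Mrps18c at -0.054, Mrps21 at -0.13, Mrps22 at -0.39 and Mrps25 at -0.25. The cause was not tested.

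With each library left out in turn, the median over members ran from -0.32 (without Cdo1AKO 2) to 0.034 (without Cdo1AKO 1), the large subunit median from -0.31 to 0.053, and the small subunit median from -0.36 to -0.0057. Some members changed sign. Log2 fold changes ran from -0.23 to 0.047 for Mrpl10, -0.35 to 0.041 for Mrpl11, -0.29 to 0.56 for Mrpl20, -0.51 to 0.11 for Mrpl27, -0.11 to 0.33 for Mrpl34 and -0.13 to 0.13 for Mrpl44. They ran from -0.22 to 0.34 for Mrpl54, -0.22 to 0.26 for Mrpl57, -0.27 to 0.19 for Mrps12, -0.23 to 0.19 for Mrps18c, -0.28 to 0.18 for Mrps21 and -0.47 to 0.32 for Mrps22. The others that changed sign were Mrps25 (-0.36 to 0.35), Mrps36 (-0.51 to 0.22), Mrps6 (-0.063 to 0.72) and Mrps7 (-0.55 to 0.011). Among named members that kept their sign, values could still move by more than 1.5 times, as in Mrpl12 (-1.02 without Cdo1AKO 2 to -0.082 without Cdo1AKO 1) and Mrps34 (-0.46 without Cdo1AKO 2 to -0.0062 without control 1).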
